A study of Mus musculus with 4 samples.

Results

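The levels of 9 genes of the monocyte lineage were followed through single marrow cells: Ly6c2, F13a1, Lyz2, Ccr2, Ly86, Ms4a6c, Fn1, Plac8 and Tgfbi, 9 of 17507 gene names in the tables. The genes were listed by name as a lineage set, and all 9 had a row. The cells were CD51-negative marrow cells of C57BL/6 mice, called TNCs in the labels and not spelled out there, in a CD44+ sort and a CD44- sort. All groups share the mouse strain, the absence of CD51 and the release of cells with collagenase IV and dispase, and no allele, age or treatment is given for any of them. Cells were profiled by SORT-seq, a plate method that marks the RNA of each well with a barcode and each captured molecule with an identifier of its own. CD44 is the hyaluronan receptor, and the series title asks about a blood origin of marrow cells that lack CD45. The labels do not say how many animals gave a plate, so a p-value measures only the spread between libraries, which may be technical.

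Monocytes arise in the marrow from granulocyte-monocyte progenitors, which pass through a stage that still makes the azurophil granule proteins Mpo, Elane, Prtn3 and Ctsg. In the mouse, the lineage then takes on Ly6C on its surface and leaves the marrow by way of the chemokine receptor Ccr2. The transcription factor PU.1 is required for this lineage, and Irf8 and the growth factor receptor Csf1r mark its commitment and survival. Some of the 9 genes are also used elsewhere: Lyz2 and Ly6c2 in neutrophils, Plac8 in lymphocytes and neutrophil precursors, and Fn1 and Tgfbi in stroma.

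A well counted as a cell with at least 1000 transcripts outside the spike-ins, which left 343 of the 1536 wells (238 CD44+ and 105 CD44-). They form 3 libraries per sort: pair 1 is a whole plate of each sort on 1 flow cell, and pairs 2 and 3 are plates that held both sorts, on the second. Cells numbered 56, 95 and 87 in the CD44+ libraries, with 149707, 1118720 and 1707320 transcripts. They numbered 44, 24 and 37 in the CD44- libraries, with 97042, 101367 and 158763 transcripts. Cd44 itself did not separate the sorts, at 201 ± 97.4 CPM in CD44+ libraries and 194 ± 131 CPM in CD44- libraries (SD, n = 3 each; log2 difference -0.04, edgeR adjusted p = 0.973; CPM is a gene's transcripts scaled to 1000000 of its library). Of the kept wells, 118 were low in quality, meaning that the nuclear transcript Kcnq1ot1 and genes that follow it took 10% or more of the well, or mitochondrial genes 50% or more. They made up 55.4%, 41.1% and 25.3% of CD44+ wells and 43.2%, 8.33% and 13.5% of CD44- wells in pairs 1, 2 and 3. Any 2 plates shared 9 to 69 of their kept well numbers, and 1 such number held 5 or more of the 9 genes on both plates.

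Transcripts of the 9 genes lay in few wells. None of the 9 was found in 131 wells and a single one in 115 wells. Another 40 wells had 2 of them, 27 had 3 and 8 had 4. The remaining 22 wells had 5 or more, 17 of them CD44+ (2, 12 and 3 in pairs 1, 2 and 3) and 5 CD44- (4, 1 and 0). These 22 wells held 82.7% of all Ly6c2 transcripts, 91.6% of F13a1, 90.4% of Fn1, 89.3% of Tgfbi, 88.9% of Ccr2, 82.8% of Ly86, 69.6% of Plac8, 67.3% of Ms4a6c and 64.9% of Lyz2. The limit of 5 genes was set after the values were seen, so the 22 wells are a description and carry no test.

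The 22 wells fell in 2 groups by their content of Mpo, the myeloperoxidase of azurophil granules. In 11 wells Mpo had 16 to 635 transcripts, and in the other 11 it had 0 or 1, with no well between. The Mpo-rich wells were 9 of the CD44+ sort and 2 of the CD44- sort, and the Mpo-poor wells were 8 of the CD44+ sort and 3 of the CD44- sort. By pair 1, 2 and 3 the CD44+ libraries had 0, 6 and 3 Mpo-rich wells and the CD44- libraries 1, 1 and 0. Of Mpo-poor wells the CD44+ libraries had 2, 6 and 0 and the CD44- libraries 3, 0 and 0. Elane, Prtn3 and Ctsg, the serine proteases stored beside Mpo, were each found in all 11 Mpo-rich wells. In Mpo-poor wells Elane was found in 5 of 11, Prtn3 in 3 and Ctsg in 0. Irf8 and Csf1r were found in all 11 Mpo-rich wells, and in 6 and 7 of the 11 Mpo-poor wells. Neither group was uniform by markers of other lineages (classes described below). Mpo-rich wells were of the primary granule or late neutrophil class, except a CD44- well of 2148 transcripts classed late erythroid. The primary granule list includes Mpo, Elane, Prtn3 and Ctsg, so that class follows in part from the grouping by Mpo. Mpo-poor wells were early or late erythroid, B progenitor, late neutrophil or of no class, and some were low in quality. The early erythroid well, of 33967 transcripts, had at most 2 of any of the 9 genes.

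Fn1, which encodes the matrix protein fibronectin, was found in 3 of 11 Mpo-rich wells with at most 7.01 transcripts, and in 9 of 11 Mpo-poor wells with up to 74.7 (medians of 0 and 17.1 transcripts per 10000). Lyz2, a lysozyme of phagocytes, had a median of 1.11 per 10000 in Mpo-rich wells and 14.4 in Mpo-poor wells, where all 11 wells had it. Its neighbour Lyz1 stood at medians of 9.38 per 10000 in Mpo-rich and 105 in Mpo-poor wells. In sums, Fn1 had 14.01 transcripts in Mpo-rich and 164 in Mpo-poor wells, and Lyz2 had 44.03 in Mpo-rich and 169 in Mpo-poor wells. Much of the Mpo-poor sums came from CD44+ wells of pair 2, with 74.7, 49.3 and 15.03 of Fn1, the first also with 71.6 of Lyz2. The Mpo-poor CD44- wells, all of pair 1, had 10.01, 4 and 3 of Fn1. Mpo-rich wells with Fn1 had 7.01, 6 and 1, the 6 and the 1 in wells of several lineages described below. Plac8 went the other way, with 514 transcripts in Mpo-rich and 62.1 in Mpo-poor wells, and so did Ly86, with 138 in Mpo-rich and 20.01 in Mpo-poor wells. Tgfbi had 51.04 in Mpo-rich and 49.1 in Mpo-poor wells.

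**Figure D1:**
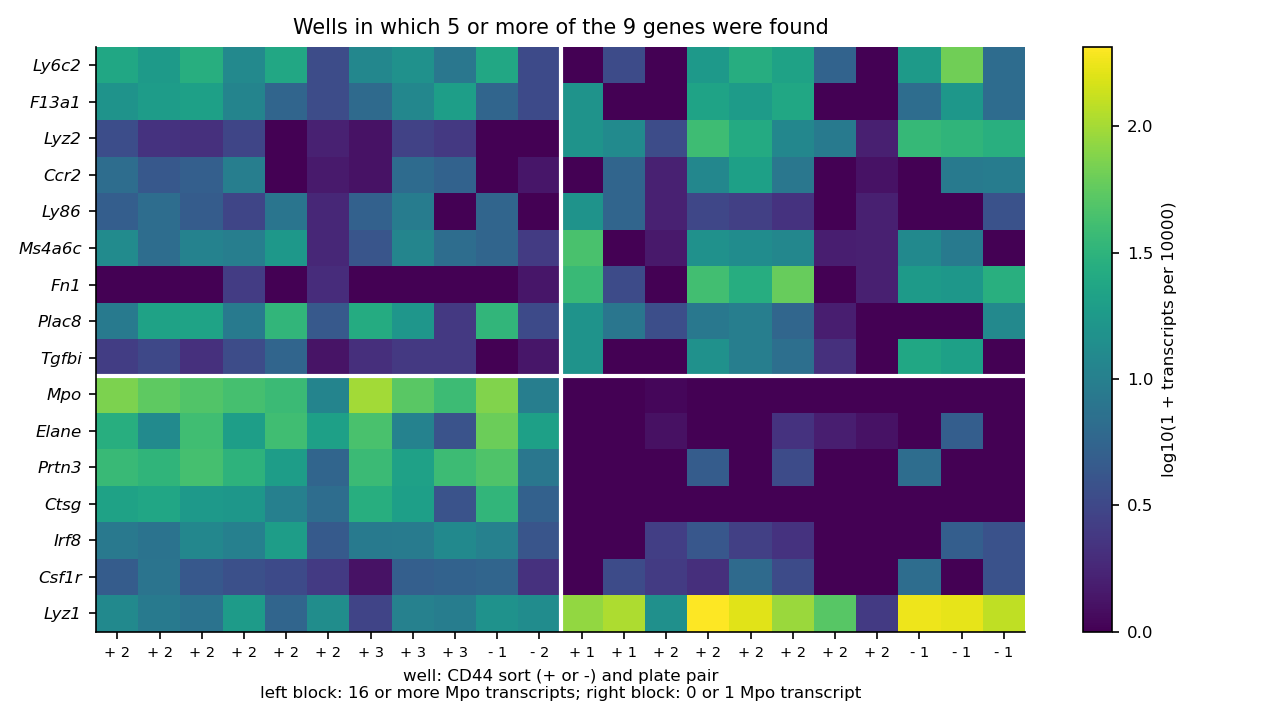
Heat map of the 22 wells in which 5 or more of the 9 genes were found (columns, labelled by CD44 sort and plate pair) for the 9 genes, the granule genes, Irf8, Csf1r and Lyz1 (rows), as log10 of 1 plus transcripts per 10000. The left 11 wells hold Mpo, Elane, Prtn3 and Ctsg with Fn1 in 3 wells, and the right 11 wells hold 0 or 1 Mpo transcript with Fn1 in 9 wells and Lyz2 in 11.

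Ly6c2, the glycosylphosphatidylinositol-anchored Ly6C antigen, was found in 11 of 11 Mpo-rich wells at a median of 13.9 per 10000 and in 8 of 11 Mpo-poor wells at 5.58. F13a1, the A subunit of coagulation factor XIII that monocytes carry, was found in 11 Mpo-rich wells at 10.1 and in 7 Mpo-poor wells at 5.70. Ms4a6c, a tetraspan membrane protein of myeloid cells, was found in 11 Mpo-rich wells at 5.77 and in 9 Mpo-poor wells at 7.92. Ccr2 was found in 9 Mpo-rich wells at 3.36 and in 8 Mpo-poor wells at 4.74. Tgfbi, a secreted adhesion protein induced by TGF-beta, was found in 10 Mpo-rich wells at 1.40 and in 7 Mpo-poor wells at 5.98. The ranges of the 2 groups of wells overlap for each of the 9 genes. Cybb, the heavy chain of the phagocyte oxidase, was found in 10 Mpo-rich wells at 3.43 and in 9 Mpo-poor wells at 15.8. Lgals3, a lectin of macrophages, was found in 10 Mpo-rich wells at 1.44 and in 10 Mpo-poor wells at 7.92. An Mpo-poor CD44+ well held 1394 transcripts of S100a8, a calprotectin subunit of neutrophils, and 626 of Camp, a neutrophil granule peptide. The wells also differ in depth, with medians of 42833 transcripts in Mpo-rich and 5645 in Mpo-poor wells, and its part in these counts was not tested.

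A few of the 22 wells held genes of several lineages. The 3 wells whose profile was most like the sum of their plate (Pearson r across genes of 0.916, 0.908 and 0.874) were all of pair 2. A CD44+ well of 62249 transcripts held 62.5 Mpo transcripts beside 116 of S100a8, 72.6 of Cd79a, a chain of the B cell receptor, and 50.3 of Cxcl12, a stromal chemokine. A CD44- well of 26244 transcripts held 23.1 Mpo, 47.3 S100a8, 35.2 Cd79a and 24.1 Cxcl12, and supplied 29.8% of the transcripts of the 9 genes in its library. The third, a CD44+ well of 111333 transcripts, was put with late red cell precursors by its markers, yet held 27.1 Lyz2, 29.1 Plac8 and 55.4 Cd79a transcripts. Without these 3 wells there are 19, of which 9 are Mpo-rich and 10 Mpo-poor, 15 CD44+ and 4 CD44-.

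**Figure D2:**
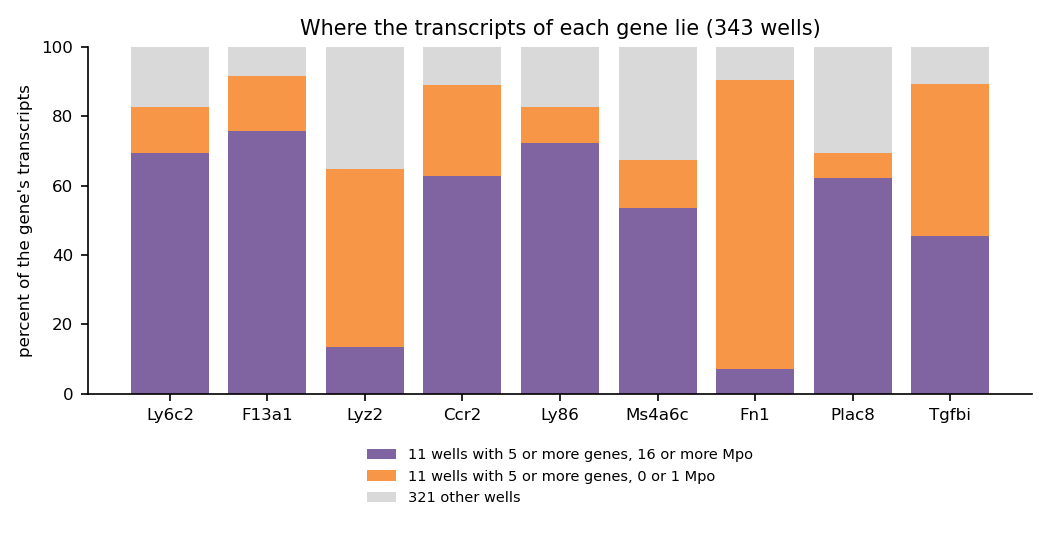
Share of each gene's transcripts (percent of its total over 343 wells) in the 11 Mpo-rich wells, the 11 Mpo-poor wells and the 321 wells with fewer than 5 of the 9 genes. Most Fn1 and, by a small margin, most Lyz2 lie in the Mpo-poor wells. Most F13a1, Ly86, Ly6c2, Ccr2, Plac8 and, by a small margin, Ms4a6c lie in the Mpo-rich wells. Tgfbi has no such majority in either.

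Mpo at 10 or more transcripts was seen in 14 wells, 12 of the CD44+ sort and 2 of the CD44- sort. Ly6c2 and Plac8 were found in all 14, Plac8 with up to 167 transcripts. Irf8 was found in 11 of the 14, and these were the wells with F13a1 (11 of 11), Ms4a6c (11 of 11) and Csf1r (11 of 11). These 11 are the Mpo-rich wells above, including those of several lineages. They were picked for holding 5 or more of the 9 genes, and the other 3 held fewer. The split of F13a1 and Ms4a6c between the 11 and the 3 therefore follows in part from that choice and is not a separate result. In the other 3 of the 14 wells, all CD44+, Mpo had 22.1, 27.1 and 551 transcripts and Elane 38.2 to 248. The genes F13a1, Ms4a6c, Ccr2, Fn1, Tgfbi, Irf8 and Csf1r were all at 0 in those 3, and the part of depth in this was not tested. Ly6c2 had 5, 6 and 15.03 transcripts there and Plac8 3, 7.01 and 93.04. Among these 14 wells, Ly6c2 and Plac8 were thus present with and without Irf8, and F13a1 and Ms4a6c with it. Outside them this did not hold: 2 Mpo-poor wells had both F13a1 (2 and 1 transcripts) and Ms4a6c (6 and 2) with Irf8 at 0, and another had 19.04 of Irf8 with F13a1 at 0. The first 2 were shallow, at 1390 and 1754 transcripts, and the well of 1390 was low in quality. The well with 19.04 of Irf8 was that of 111333 transcripts with several lineages described above. The part of depth and quality in these values was not tested.

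Promoters are shown for Ly6c2 and F13a1, which accompany Mpo in the Mpo-rich wells, for Lyz2, which is low there, and for Mpo itself, with the 7 letters AGGAAGT in capitals (or ACTTCCT, the same letters on the other strand), a form of the core bound by PU.1 and other ETS factors. Only promoters that hold these letters are printed, so the display does not tell whether the letters go with Mpo. Plac8 and Ms4a6c, also found in all 11 Mpo-rich wells, are not shown, and both promoters of Plac8 lack the letters. Each promoter shown is 300 bases from RefSeq, build GRCm38.p6, from 250 bases before to 50 after a transcript start. It is printed along the gene's own strand. Ly6c2 lies on the reverse strand at chr15:75111922-75112221, F13a1 on the reverse strand at chr13:37049164-37049463, Lyz2 on the reverse strand at chr10:117282223-117282522, and Mpo on the forward strand at chr11:87793534-87793833.
Ly6c2: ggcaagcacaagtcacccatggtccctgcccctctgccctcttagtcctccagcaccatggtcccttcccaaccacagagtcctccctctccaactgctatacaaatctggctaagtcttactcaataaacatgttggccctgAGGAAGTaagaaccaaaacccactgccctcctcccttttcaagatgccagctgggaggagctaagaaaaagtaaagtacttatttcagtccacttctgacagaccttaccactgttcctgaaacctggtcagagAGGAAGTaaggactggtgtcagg
F13a1: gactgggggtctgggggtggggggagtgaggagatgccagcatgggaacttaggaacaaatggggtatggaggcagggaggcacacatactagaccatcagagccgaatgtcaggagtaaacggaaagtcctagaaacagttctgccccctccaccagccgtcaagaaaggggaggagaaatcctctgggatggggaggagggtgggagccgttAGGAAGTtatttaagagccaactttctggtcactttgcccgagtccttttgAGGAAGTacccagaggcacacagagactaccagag
Lyz2: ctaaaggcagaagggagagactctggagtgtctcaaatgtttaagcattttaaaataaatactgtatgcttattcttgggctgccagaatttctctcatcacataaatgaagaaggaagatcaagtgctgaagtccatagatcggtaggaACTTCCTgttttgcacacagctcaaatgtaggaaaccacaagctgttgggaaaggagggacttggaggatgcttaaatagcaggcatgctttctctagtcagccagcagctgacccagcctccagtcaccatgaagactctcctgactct
Mpo: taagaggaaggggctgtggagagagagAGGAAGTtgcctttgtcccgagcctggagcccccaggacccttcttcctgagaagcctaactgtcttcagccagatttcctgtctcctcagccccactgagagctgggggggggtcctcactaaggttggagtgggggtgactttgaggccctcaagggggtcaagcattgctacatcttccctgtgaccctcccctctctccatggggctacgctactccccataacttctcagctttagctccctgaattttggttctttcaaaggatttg
The table had promoters for 8 of the 9 genes, all but Fn1. The letters were found on either strand in 5 of these 11 promoters, from Ly6c2, F13a1, Lyz2 and Ms4a6c (4 of 8 genes). Over all promoters of this length they were found in 3072 of 32851 (9.35%), or 2886 of 27025 genes (10.7%). The 5 include overlapping promoters of Ly6c2 (chr15:75111888-75112187 and chr15:75111922-75112221), so its sites are counted more than once. F13a1 held them in 1 of its 2 promoters, and Ccr2, Ly86, Plac8 and Tgfbi did not hold them. A match of letters is a description and not a binding site.

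Across the sorts, the summed level of the 9 genes was 942, 1877 and 532 CPM in CD44+ libraries of pairs 1, 2 and 3, against 2000, 829 and 296 CPM in CD44- libraries. The libraries overlap, and the direction turned between pairs. The CD44+ library was the lower one for 9 of 9 genes on pair 1, the higher one for 9 of 9 on pair 2, and the higher one for 6 of 9 on pair 3. No gene kept its direction over the 3 pairs. Pairs 2 and 3 lie on the other flow cell than pair 1, and the 3 richest wells of a library held 35.5% to 80.5% of its transcripts of the 9 genes.

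In edgeR's quasi-likelihood test over 2463 genes, 1 gene was higher in the CD44+ sort (0.0406%) and 24 were lower (0.974%) at an adjusted p under 0.05. Of the 9 genes 7 passed the filter on low counts, all but Ccr2 and Tgfbi, and 0 of the 7 were called, with 0 at an unadjusted p under 0.05 (470 of all genes tested) and adjusted p-values of 0.669 to 0.984. The DESeq2 test also called 0 of the 7. Their median log2 difference was -0.05, with 3 above and 4 below 0, against a median of -0.04 over all genes tested. Blocking on the plate pair gave 43 higher genes (1.75%) and 113 lower ones (4.59%), and again 0 of the 7. The test of whether the sort difference depends on the flow cell has 1 library per sort on the flow cell of pair 1, so its spread comes from pairs 2 and 3 alone. It called 0 genes of 2463, with 87 at an unadjusted p under 0.05 (edgeR), and Ly86 had the lowest value of the 9 genes there (unadjusted p = 0.0487, adjusted p = 0.948; the 7 genes ran from 0.948 to 0.955). Leaving out any 1 of the 6 libraries gave 0 to 7 genes higher and 0 to 108 lower, both highest without the CD44- library of pair 1, and none of the 9 genes in any case. A miss of the threshold does not show that the sorts are alike.

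**Figure D3:**
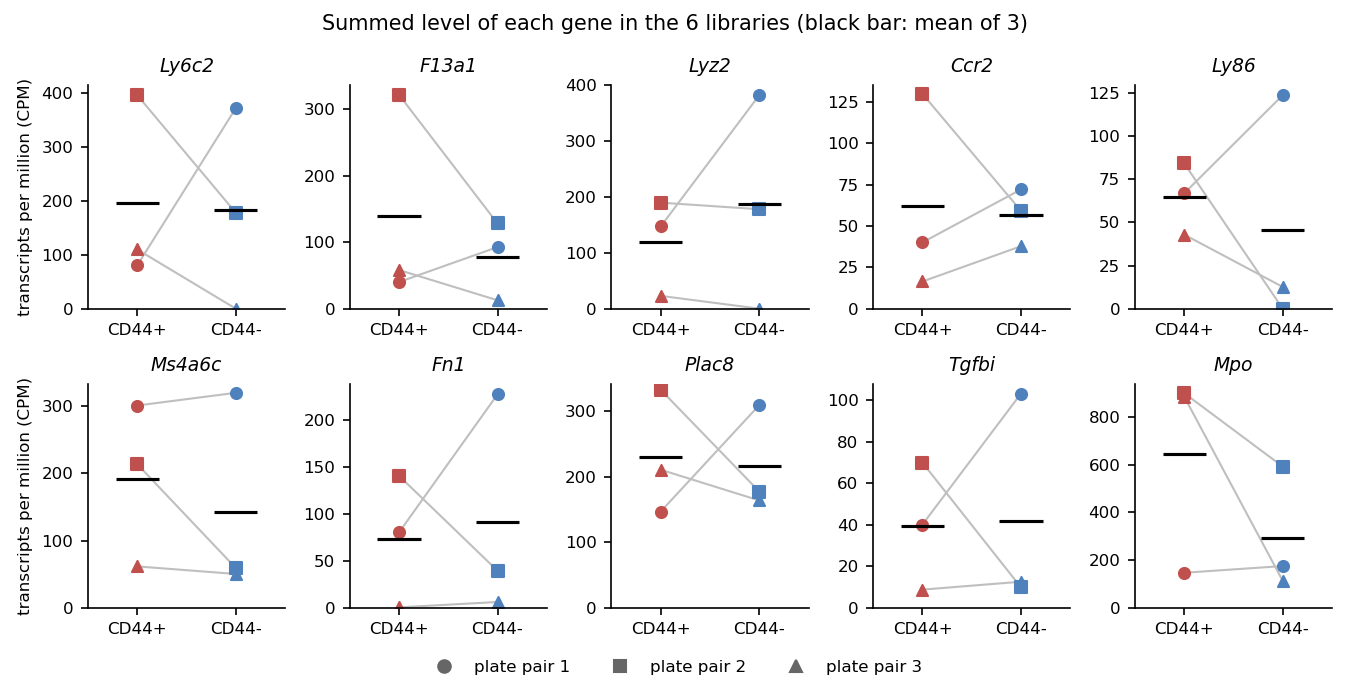
Level of each of the 9 genes and Mpo in CPM, for the CD44+ libraries (left) and CD44- libraries (right), 1 symbol per plate pair joined by a grey line, with the mean of 3 as a black bar. The lines of pair 1 rise to the right and those of pair 2 fall to the right in all 9 genes, so the sorts overlap.

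Among surface antigens and receptors, Ly6c2 (chromosome 15, 75108158 to 75111970, reverse strand, GRCm38) had 80.2, 395 and 110 CPM in CD44+ libraries against 371, 178 and 0 CPM in CD44- libraries. It was highest in the CD44+ library of pair 2 and at 0 in the CD44- library of pair 3, where 0 of 37 kept wells had it (exact 95% interval up to 9.49% of wells, for counting error only) and wells under 1000 transcripts held 2. Its log2 difference was -0.07 (SE 1.13, edgeR adjusted p = 0.984). Ccr2 (chromosome 9, 124101950 to 124113557, forward strand), the receptor for CCL2, had 40.1, 130 and 16.4 CPM in CD44+ libraries against 72.1, 59.2 and 37.8 CPM in CD44- libraries. Its highest and lowest libraries were both CD44+. Ly86 (chromosome 13, 37345208 to 37419036, forward strand), also called MD-1, pairs with the Toll-like protein RP105, and had 66.8, 84.2 and 42.9 CPM in CD44+ libraries against 124, 0 and 12.6 CPM in CD44- libraries. Its CD44+ libraries lay inside the range of the CD44- libraries (log2 difference 0.43, SE 1.03, edgeR adjusted p = 0.847).

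Ms4a6c (chromosome 19, 11469366 to 11482192, forward strand) had 301, 213 and 61.7 CPM in CD44+ libraries against 319, 59.2 and 50.4 CPM in CD44- libraries. It was high in both libraries of pair 1, and its log2 difference was 0.33 (SE 0.93, edgeR adjusted p = 0.875). Plac8 (chromosome 5, 100553725 to 100572245, reverse strand), a small cysteine-rich protein of leukocytes, had 147, 333 and 211 CPM in CD44+ libraries against 309, 178 and 164 CPM in CD44- libraries. Its 6 libraries spanned 147 to 333 CPM with the sorts overlapping, and its log2 difference was -0.05 (SE 0.44, edgeR adjusted p = 0.965).

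Among secreted and granule proteins, F13a1 (chromosome 13, 36867178 to 37050244, reverse strand) had 40.1, 322 and 58.2 CPM in CD44+ libraries against 92.7, 128 and 12.6 CPM in CD44- libraries. The CD44+ library of pair 2 stood above the rest, and the log2 difference was 0.83 (SE 0.95, edgeR adjusted p = 0.669). Lyz2 (chromosome 10, 117277331 to 117282321, reverse strand) had 147, 189 and 22.9 CPM in CD44+ libraries against 381, 178 and 0 CPM in CD44- libraries, a log2 difference of -0.76 (SE 1.24, edgeR adjusted p = 0.766). Both libraries of pair 3 were its lowest. Fn1 (chromosome 1, 71585520 to 71653200, reverse strand) had 80.2, 140 and 0.586 CPM in CD44+ libraries against 227, 39.5 and 6.30 CPM in CD44- libraries, a log2 difference of -0.40 (SE 1.55, edgeR adjusted p = 0.914). Pair 3 held 1 Fn1 transcript in each sort. Tgfbi (chromosome 13, 56609523 to 56639562, forward strand) had 40.1, 69.8 and 8.79 CPM in CD44+ libraries against 103, 9.87 and 12.6 CPM in CD44- libraries, and its sorts overlap as well.

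After each well was thinned to 1000 transcripts, shares of wells did not separate the sorts either. Plac8 was found in 11.1% ± 5.56 of CD44+ wells and 18.3% ± 10.6 of CD44- wells (SD, n = 3; two-sided exact permutation p = 0.4). Ly6c2 was found in 9.70% ± 6.23 of CD44+ wells and 13.3% ± 11.7 of CD44- wells (exact p = 0.8). Ms4a6c was found in 17.5% ± 10.02 of CD44+ wells and 14% ± 13.6 of CD44- wells (exact p = 0.9). The other 6 genes stood at 2.73% to 7.88% in CD44+ wells and 1.52% to 7.38% in CD44- wells. The exact p-values of the 9 genes ran from 0.4 to 0.9, and 3 libraries against 3 cannot give less than 0.1. Not thinned, Plac8 was found in 21.6% of CD44+ wells and 27.2% of CD44- wells, and Ms4a6c in 34.3% of CD44+ wells and 20.8% of CD44- wells.

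Read by marker genes of other lineages, Ly6c2 was most often found in wells of the primary granule and late neutrophil classes. A well was put in the class whose list took most transcripts, with at least 3 of its genes and 0.5% of the well. In the 10 wells of the primary granule class, all CD44+ and with a median of 38746 transcripts, Ly6c2 and Plac8 were found in 10 of 10, and F13a1, Lyz2, Ccr2, Ly86, Ms4a6c and Tgfbi each in 7. After thinning, Ly6c2 and Plac8 were found in 8 of these 10, F13a1 in 6, and Lyz2 and Ly86 in 0. The 61 late neutrophil wells (29 CD44+ and 32 CD44-, median 1817 transcripts) hold neutrophil genes such as S100a8 and Camp. With Cxcr2 left out of the list they numbered 54. Ly6c2 was found in 29 of the 61 and Lyz2 in 24. In the 79 early erythroid wells, which should lack these genes and are deeper at a median of 11937, each was found in 2 to 10 wells, and after thinning in 0 to 3. In the 19 stromal wells Fn1 and Tgfbi were each found in 1 well, with 1 and 2 transcripts. Fn1 stood highest in the 101 wells of no class, at 332 CPM from 8 wells. Of these 101 wells 89 were low in quality, and 3 wells that were not held most of its Fn1, with 74.7, 49.3 and 15.03 transcripts.

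B lineage wells carried Plac8 and, at low counts, F13a1. Of 49 wells with B progenitor genes (median 4242 transcripts), 24 had Plac8, with up to 10.01 transcripts in a well. After thinning 13 still had it (26.5%, exact 95% interval 14.9% to 41.1%). The CD44+ library of pair 2 held 15 of the 24 and 26 of the 49, and is the library with the most Plac8. F13a1 was found in 16 of the 49, and after thinning in 5 (10.2%, interval 3.40% to 22.2%). It never exceeded 3 transcripts in such a well, and 12 of the 16 wells were in the CD44+ library of pair 2, the library with the most F13a1. Ly6c2 was found in 5 of the 49 wells and in 0 after thinning. These intervals cover counting error only.

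Mpo was found in 84 wells, with 1 transcript in 40 of them and 2 to 9 in 30. In wells with Plac8, 45.7% had Mpo (37 of 81; exact 95% interval 34.6% to 57.1%), against 17.9% of wells without Plac8. With and without the gene, the shares were 52% and 22.3% for Tgfbi, 51.5% and 21.6% for Ccr2, and 46% and 20.8% for F13a1. They were 41.3% with and 21.9% without Lyz2, and 37.7% with and 21.6% without Ly6c2. The shares were 37.5% and 22.8% for Ly86, 30.8% and 23.97% for Fn1, and 24.04% and 24.7% for Ms4a6c. For these genes the share without the gene lay inside the exact 95% interval of the share with it, for Ly86 barely (lower limit 22.7%). Such intervals pool wells of all libraries and cover counting error of 1 share only, so they do not decide which gaps are real. By library, Mpo was found in 1.79% (CD44+, pair 1) to 75% (CD44-, pair 2) of wells. By sort, the share was higher with the gene for 8 of 9 genes in CD44+ wells and for 6 of 9 in CD44- wells. In CD44+ wells it was 60% with and 18.3% without Tgfbi, and in the CD44- wells 20% with (1 of 5) and 31% without. In CD44- wells Ly86 (22.2% with, 31.3% without) and Ms4a6c (25% with, 32.1% without) went the same way, and Ly6c2 had 31.6% with and 30.2% without. Plac8 was 43.6% with and 15.3% without in CD44+ wells, and 50% with and 24.1% without in CD44- wells. After thinning to 1000 transcripts the share was higher in wells with the gene for 5 of 9 genes rather than 8 of 9, and for Lyz2 it differed by -10.5 percentage points. Wells with a gene were the deeper ones for each of the 9, from 3585 against 3299 transcripts in the median for Ly6c2 to 6931 against 3185 for Tgfbi. Mpo itself was found in 26.6% of early erythroid wells, and in 7.59% after thinning.

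**Figure D4:**
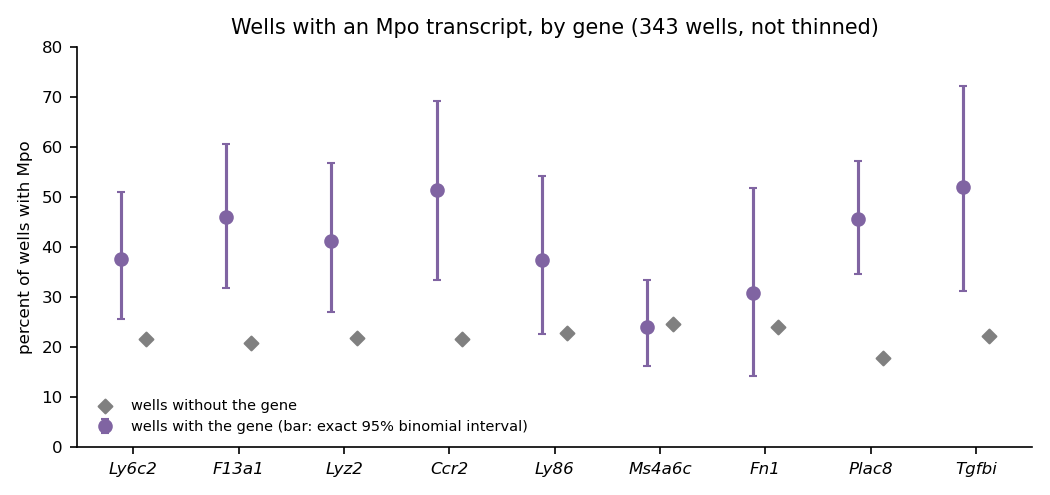
Percent of wells with an Mpo transcript among wells with each of the 9 genes (circles, with exact 95% binomial intervals) and among wells without it (diamonds), over 343 wells that were not thinned. Plac8, Tgfbi, Ccr2 and F13a1 show the widest gaps, and for Ms4a6c the 2 symbols lie close together.

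Flow cells were also looked at apart. Pair 1 had Mpo in only 3 wells, so nearly all of this overlap comes from pairs 2 and 3, where the shares were 53.03% with Plac8 and 25.99% without, 55% with F13a1 and 29.1% without, and 65.5% with Lyz2 and 28.97% without. Across the 343 wells, Pearson r between the level of Mpo and that of a gene, both as the natural log of 1 plus transcripts per 10000, was 0.46 for Plac8, 0.38 for Ly6c2 and 0.35 for F13a1, but 0.04 for Lyz2 and -0.03 for Fn1. These r-values describe wells that share plates and depth and carry no p. Among the genes themselves, Tgfbi wells had Ly6c2 and F13a1 in 20 of 25 each. Of the 61 Ly6c2 wells, 33 had Plac8, 30 had Lyz2, 26 had F13a1, 20 had Tgfbi and 13 had Fn1. Counted the other way, 65.2% of Lyz2 wells and 50% of Fn1 wells had Ly6c2.

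Ms4a6c behaved apart from the other genes. It was found in 104 wells, the most of the 9, and in 57 of them none of the other 8 was present. Of those 57 wells 46 were low in quality. Ms4a6c was found in 52.5% of low-quality wells and 18.7% of other wells, whereas the other 8 genes were each found in 0.847% to 7.63% of low-quality wells and 8% to 32% of other wells. The low-quality wells were the shallower ones, at a median of 2167 transcripts against 4508 in other wells.

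By library the link was present on pairs 1 and 3. On pair 1 the CD44+ library had Ms4a6c in 22 of 31 low-quality wells and 0 of 25 others, and the CD44- library in 12 of 19 low-quality wells and 4 of 25 others. On pair 3 the CD44+ library had it in 14 of 22 low-quality wells and 12 of 65 others, and the CD44- library in 3 of 5 and 2 of 32 likewise. Pair 2 did not show it: the CD44+ library had it in 11 of 39 low-quality wells and 21 of 56 others, and the CD44- library in 0 of 2 and 3 of 22 likewise. In the 57 wells where it stood alone it had a median of 1 transcript, and Kcnq1ot1 took a median of 11.5% of the well, against 0.593% in wells without Ms4a6c and 0.292% in the 22 wells with 5 or more genes. Kcnq1ot1 is part of the definition of low quality. Its level and that of Ms4a6c had r = 0.44 across wells, a description only. Without low-quality wells the share with Mpo was 16.6 percentage points higher in wells with Ms4a6c than in wells without it. What part well quality has in the Ms4a6c levels above was not tested.

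**Figure D5:**
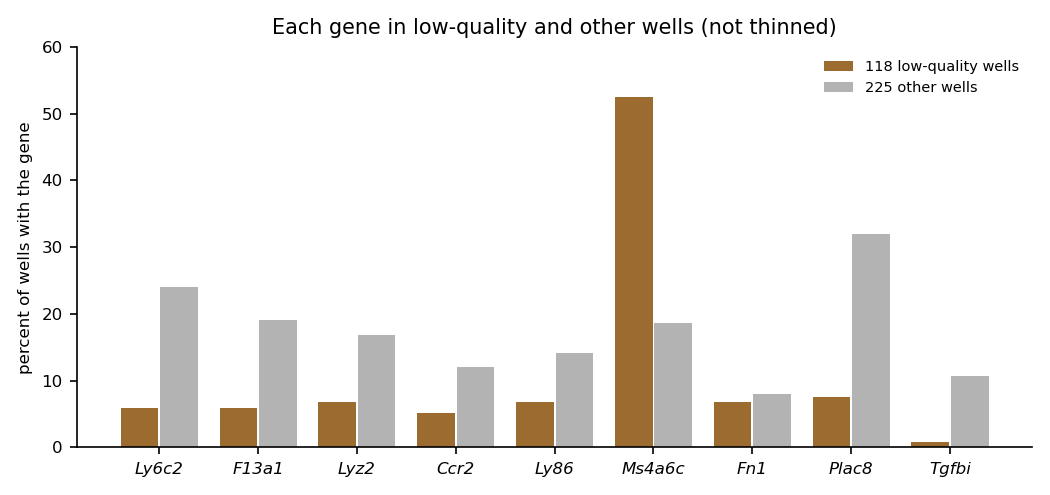
Percent of wells in which each of the 9 genes was found, for the 118 low-quality wells (left bars) and the 225 other wells (right bars), not thinned. Ms4a6c is the gene with the taller left bar, at 52.5% against 18.7%.

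Genes whose level across the 343 wells was most like the sum of the 9 were Lyz1 (Pearson r 0.60), the adaptor Tyrobp (0.58), the actin-binding Coro1a (0.53), Tmsb4x (0.51), Alox5ap (0.50), Cd52 (0.49), Sh3bgrl3 (0.47), Fcer1g (0.47), Arhgdib (0.47) and Lcp1 (0.46). With Lyz2, Fn1 and Tgfbi left out of the sum, Tyrobp (0.51), Coro1a (0.48), Lyz1 (0.46), Selplg (0.44), Tmsb4x (0.44), Emb (0.44), Sh3bgrl3 (0.43), Fxyd5 (0.43), Fcgr3 (0.42) and Cd52 (0.42) led. Many of these are used by leukocytes at large.

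A wider list of 31 monocyte and macrophage genes had 30 in the tables and 15 past the filter, of which 0 were called by edgeR, with or without the block. Their median log2 difference was -0.76, with 1 above and 14 below 0, against -0.04 over all genes. Cybb averaged 197 ± 145 CPM in CD44+ libraries and 541 ± 372 CPM in CD44- libraries (SD, n = 3; log2 difference -1.57, SE 0.68, edgeR adjusted p = 0.259). Psap, Fcer1g and Emb, the next most abundant, had log2 differences of -0.89, -1.04 and -0.68. A list of 13 genes covered primary granules and granulocyte-monocyte progenitors. In it Hp, which encodes haptoglobin, averaged 171 ± 121 CPM in CD44+ libraries and 1536 ± 1598 CPM in CD44- libraries. Hp was lower in the CD44+ sort with the block alone (edgeR adjusted p = 0.00299). Mpo averaged 644 ± 431 CPM in CD44+ libraries and 294 ± 261 CPM in CD44- libraries (log2 difference 0.98, SE 0.72, edgeR adjusted p = 0.484). Of the 13 genes of that list 6 were tested and 0 called. Of 14 late neutrophil genes 10 were tested and 0 called, 1 being lower with the block, and their median log2 difference was -1.75 with 9 of 10 below 0. S100a8 averaged 2198 ± 959 CPM in CD44+ libraries and 4593 ± 3800 CPM in CD44- libraries. Markers of dendritic cells summed to 161 to 394 CPM in CD44+ libraries and 266 to 866 CPM in CD44- libraries, with 2 of 13 tested and 0 called.

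Markers of other lineages were compared between the sorts as well. Stromal genes summed to 274, 1792 and 1154 CPM in CD44+ libraries against 6947, 14666 and 36569 CPM in CD44- libraries, and 7 of 16 tested were lower in the CD44+ sort (edgeR), 15 with the block. With 1 library left out, no gene at all was called lower in 5 of the 6 fits, the exception being the fit without the CD44- library of pair 1. Early erythroid genes summed to 7122, 4504 and 10635 CPM in CD44+ libraries against 1755, 1826 and 2723 CPM in CD44- libraries, with 0 of 14 called and 7 higher with the block. Of 10 late erythroid genes tested 0 were called, and 1 was lower with the block. Of 11 B progenitor genes tested 0 were called either way. No endothelial or megakaryocyte gene passed the filter. The part of these lineages in the levels of the 9 genes was not tested.

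Some of these counts may share reads between near copies. Of the 75-base stretches of the Ly6c2 transcript compared, 21.9% also occur in Ly6c1, and of those of Lyz2, 5.96% occur in Lyz1 (11.7% and 7.04% within the last 500 bases, GENCODE vM21). Ly6c1 had 69.04 transcripts in the kept wells beside 695 of Ly6c2, and Lyz1 had 2133 beside 328 of Lyz2, so the Ly6c2 and Lyz2 values are uncertain by the way shared reads were assigned. F13a1, Fn1, Ms4a6c and Mpo each overlap a gene on the opposite strand in that annotation. The use of strand in counting is not given in the sources used here, so reads of such a pair could not be told apart without it.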

How the data were processed

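For each plate the authors deposited expected counts: molecules estimated from identifiers for every gene in every well, unscaled. The submitters' processing notes name BWA 0.7.15 and build mm10, whereas counter, annotation and strand are not given in sources used here. Low values are whole numbers and higher ones lie slightly above them (90.3% of values above 0 are whole within 1e-06), as after a correction for identifier saturation that no label records. Plain counts had been assumed for the tests; values were rounded after summing. Per the labels' protocols, marrow was released with dispase at 1 mg/mL and collagenase IV at 2 mg/mL, wells were lysed at 65 °C for 5 min and libraries read with 75 bp paired ends on a NextSeq500.

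Wells of shared plates were read in row order, 1 to 192 as CD44+ and 193 to 384 as CD44-; the labels give rows, not well numbers. Wells under 1000 transcripts were left out, no doublet caller was run, and wells of low quality stayed in. The remaining wells were added up within each plate and sort, and the sums were compared in edgeR 4.0.16 (R 4.3.3; TMM, filterByExpr, quasi-likelihood test, two-sided, Benjamini-Hochberg over all genes tested), without a covariate; SE is the absolute log2 difference over the square root of F. DESeq2 1.42.0 was an alternative. The fit was tested on simulated data with the same spread for all genes and no plate effect. It called 93.5% of genes set at a log2 difference of -2, 93.3% at 2 and 0.542% at 0. That setting does not give its power for the 9 genes, whose transcripts lie in few wells. Same-numbered libraries deviated together (r of 0.456, 0.312 and 0.321; other combinations -0.355 to 0.083; deviations within a sort sum to 0), and labels put pairs 2 and 3 on shared plates, so the pair was used as a block in an alternative. Shares of wells were compared after thinning each well to 1000 transcripts without replacement (1 well fell below after rounding), with exact permutation tests over libraries. Intervals for shares are Clopper-Pearson at 95%; a count of 0 allows 3. Positions are from GENCODE vM21. The genes named are the 9 members, Mpo, the 4 most abundant genes of other lists and the 10 genes most like the members; the members, lists and limits were chosen with earlier results of these data known.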

Additional observations from a re-analysis of the deposited data

Results flagged for a closer look

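Wells with under 1000 transcripts, which no comparison uses, also held transcripts of the 9 genes. In the CD44+ sort 530 such wells held 99 transcripts of the 9 genes (903 CPM), found in 63 wells. In the CD44- sort 663 such wells held 134 (959 CPM), found in 86 wells. The labels name no control wells, so the level of free RNA in such wells is not known. Spike-ins were scarce in columns 22 to 24 of the 2 plates that held both sorts, where the median of the other columns was 42.2 and 59.4 times as high. No library was set apart by a test for outlying samples, since groups of 3 are not tested.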

How the results depend on the processing

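None of the 9 genes was called under any alternative in which it was tested; the lowest adjusted p was 0.123, for Ly86 with 1 library left out. The count of genes higher in the CD44+ sort (1) was 43 with the replicate block, 98 with DESeq2, 142 with no filter, 4 without low-quality wells and 0 without the top 1% of wells, without stromal wells or after thinning, and 0 to 7 with 1 library left out. The count lower (24) was 113 with the block, 172 with DESeq2, 335 with no filter, 160 on the shared plates alone, 40 from 500 transcripts, 51 without low-quality wells, 5 without the top 1%, 0 without stromal wells or after thinning, and 0 to 108 with 1 library left out. With no filter, 4 genes depended on the flow cell, against 0. Log2 differences changed sign for Ly6c2 (0.52 with the block, 0.50 with no filter, 1.70 on shared plates, 0.012 from 500 transcripts, 0.24 without the top 1%), Lyz2 (0.46 on shared plates), Fn1 (0.12 with no filter, 1.89 on shared plates), Plac8 (0.0097 with the block, 0.48 with no filter, 0.77 on shared plates, 0.066 from 500 and 0.15 from 2000 transcripts, 0.23 without the top 1%) and Mpo (-0.21 after thinning). With 1 library left out they ran from -0.96 to 1.31 for Ly6c2, -0.56 to 1.42 for F13a1, -1.38 to 0.62 for Lyz2, -0.15 to 3.23 for Ly86, -0.24 to 1.98 for Ms4a6c, -1.55 to 1.95 for Fn1 and -0.27 to 0.55 for Plac8. Of the 9 thinned shares 5 were higher in CD44+ wells, 8 when 2 or more transcripts were asked, and 2 to 6 with 1 library left out. In percentage points, the difference became 1.06 for Ly6c2, 2.32 for Ccr2 and 1.31 for Plac8 when 2 or more transcripts were asked, and -0.98 for Ms4a6c and 0.198 for Fn1 without low-quality wells. With 1 library left out it ran from -10.3 to 0.608 for Ly6c2, -3.19 to 3.33 for F13a1, -2.79 to 5.32 for Lyz2, -0.989 to 2.73 for Ly86, -1.28 to 11.3 for Ms4a6c, -2.90 to 1.85 for Fn1 and -1.38 to 3.40 for Tgfbi. Mpo was more often found with 8 of the 9 genes, and with 5 after thinning. The cause of these changes was not tested. Depth limits low genes: 3 transcripts equal 1.76 to 20.04 CPM in a CD44+ library and 18.9 to 30.9 CPM in a CD44- library.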
